A study of Brassica napus with 9 samples.

Results

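The 150 genes described here were those whose transcript level differed least among guard cell protoplasts of Brassica napus (rapeseed) that were mock-treated, exposed to abscisic acid (ABA) for 15 min or exposed for 60 min. They were chosen from the measured levels. Levels are given as CPM, the read count of a gene relative to the size of its library after TMM scaling, a method that sets library sizes so that most genes keep the same level. Genes with 1000 counts or more on average over the 9 samples, and not among the 200 most abundant genes of the mock-treated samples, were ranked by the coefficient of variation (CV, the SD divided by the mean) of their CPM over all 9 samples. The 150 with the lowest CV are called stable genes in what follows, and the 16388 genes from which they could be drawn are called eligible. The counts covered 101040 annotated genes, of which 52881 had enough reads to be tested. Since the choice used all 9 samples, the small spread of these genes and their small differences between the groups are a description and not a finding.

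RNA was sequenced from protoplasts, which are guard cells without their walls, of the line DH12075. The Control samples received ethanol in the proportion that carried the hormone, the ABA 15 min samples received 10 µM ABA for 15 min, and the ABA 60 min samples received the same dose for 60 min, with 3 samples in each group. Each sample pooled 3 to 5 protoplast preparations, and each of the replicate numbers 1, 2 and 3 stands for 1 such pool divided over the 3 treatments. The mock treatment was a single time point, so ABA exposure and the time spent as protoplasts cannot be told apart.

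Guard cells are the paired cells around each stomatal pore, and ABA is the hormone that makes them close the pore when water is short. ABA bound to its receptors holds back PP2C phosphatases, which frees SnRK2 kinases to act on ion channels and on transcription factors, so many transcripts change in abundance after exposure. Genes whose transcripts keep an even level through such a treatment are the usual source of internal standards for quantitative PCR, where the level of a responding gene is given relative to them. The rapeseed genome joins an A subgenome, from the turnip lineage, and a C subgenome, from the cabbage lineage, and the gene identifiers carry the subgenome and chromosome. The sources used here pair none of the 150 identifiers with a gene name or function, so the genes are given by identifier alone.

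Total counts lay between 88051359 and 123968001 per sample. The TMM factors were 1.10, 0.950 and 1.202 in Control replicates 1, 2 and 3, 1.09, 0.931 and 1.15 at 15 min, and 0.897, 0.812 and 0.938 at 60 min. Thus they followed the replicate number, and within each number the 60 min sample had the lowest factor. Transcripts of known guard cell genes also followed the replicate number. The 2 copies of ALMT12, which encodes an anion channel of guard cells, and the 3 copies of MPK12, a guard cell MAP kinase, were each highest in replicate 3 of every group. For the ALMT12 copy BnaA03g43490D the CPM was 44.3, 37.9 and 166 in Control samples, 54.1, 43.5 and 219 at 15 min, and 276, 148 and 614 at 60 min. A CAB1 transcript (BnaC03g59520D), which encodes a chlorophyll-binding protein abundant in mesophyll, went the other way, with 42.7, 43.0 and 19.8 CPM in Control samples, 38.6, 46.9 and 22.1 at 15 min, and 49.4, 56.9 and 34.7 at 60 min. The study counted its protoplasts and reported almost pure guard cells. In pooled cells, fewer cells of a type and less RNA per cell cannot be told apart, and the cause of these differences was not tested. The rule chose the stable genes for small differences between the pools as well as between the treatments.

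The most even gene of all was BnaC08g33250D on chromosome C08, with a CV of 1.92%. Its CPM was 44.0, 44.5 and 43.3 in Control samples, 43.4, 44.8 and 44.3 at 15 min, and 44.4, 45.0 and 46.1 at 60 min. The highest sample, replicate 3 at 60 min, exceeded the lowest, replicate 3 of the Control, by a factor of 1.07, and the ranges of the 60 min and Control groups overlapped. BnaA03g33160D came next, with a CV of 2.27%. Its CPM was 19.4, 19.4 and 18.4 in Control samples, 19.0, 19.1 and 19.4 at 15 min, and 18.4, 19.4 and 18.7 at 60 min. In this gene no group stood apart, and the lowest values were found both in the Control and at 60 min.

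BnaA10g02640D had a CV of 2.28%, with 36.2, 36.2 and 35.3 CPM in Control samples, 36.6, 37.1 and 35.7 at 15 min, and 37.6, 35.4 and 37.2 at 60 min. The 3 ranges overlapped. BnaC04g10300D had the highest mean level of the 150 genes, 153.3 CPM, with a CV of 2.29%. Its CPM was 156.0, 155.4 and 155.9 in Control samples, 153.3, 148.5 and 148.7 at 15 min, and 154.4, 157.9 and 149.7 at 60 min. All samples at 15 min lay below all Control samples, by a few percent, and the 60 min samples spanned the Control range. BnaAnng01760D, the next most abundant with a mean of 151.8 CPM, had the opposite order at 15 min. Its CPM was 148.2, 147.3 and 149.9 in Control samples, 151.7, 153.2 and 159.9 at 15 min, and 150.9, 154.2 and 151.2 at 60 min. Here both ABA groups lay above the whole Control range.

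In BnaC03g25930D, 75.4% of the spread lay between the groups although its CV was only 2.60%. Its CPM was 23.9, 23.6 and 23.5 in Control samples, 22.8, 23.2 and 22.9 at 15 min, and 23.7, 24.0 and 24.8 at 60 min. The samples at 15 min were the 3 lowest. The other 4 of the 10 lowest-CV genes were BnaC03g57060D (CV 2.31%), BnaC05g00070D (2.48%), BnaA09g24620D (2.59%) and BnaA08g06000D (2.60%). In each of these 4, the ranges of all 3 groups overlapped.

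**Figure D1:**
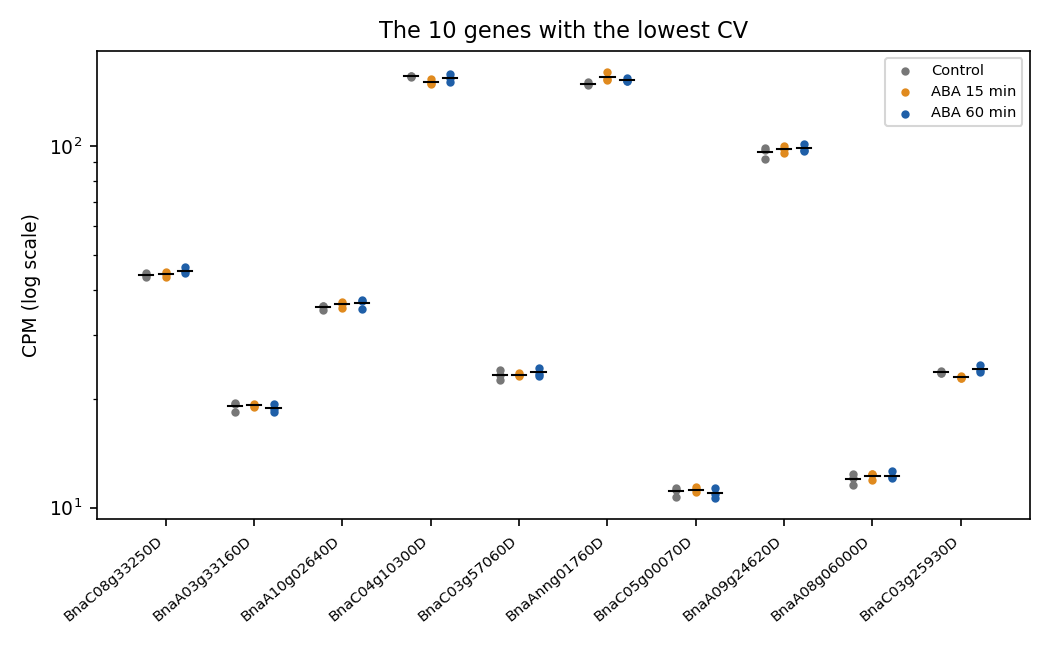
CPM (log scale) of the 10 genes with the lowest CV, with Control, ABA 15 min and ABA 60 min side by side for each gene. Each point is 1 sample and each bar the mean of 3. The points of a gene lie within a factor of 1.10 of each other, while the genes themselves range from about 11 to more than 150 CPM.

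Across the 150 genes the CV ran from 1.92% to 4.95%, with a median of 4.37%, against a median of 20.2% over the eligible genes. These values depend on the samples ranked. A choice on the 6 samples without replicate 2 gave a median of 2.68% and a limit of 3.12% over those 6, and one without replicate 3 gave 2.70% and 3.21%. The highest sample of a stable gene exceeded its lowest by a factor between 1.06 and 1.19, with a median of 1.14. The widest was BnaA03g43290D, with 21.7, 24.2 and 24.1 CPM in Control samples, 23.1, 23.8 and 24.1 at 15 min, and 25.1, 23.6 and 25.8 at 60 min. Its low value came from 1 Control sample, replicate 1. Of all values of the 150 genes, 78.2% lay within 5% of the mean of their gene and 99.5% within 10%. All 9 samples lay within 5% of the mean in 11 genes and within 10% in 143 genes, and 362 of the eligible genes (2.21%) met the wider limit.

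The limit of the choice fell in a dense part of the ranking. BnaA06g31360D, BnaA09g38490D and BnaC03g64900D were the last genes inside, each with a CV of 4.95%. BnaC03g43430D (4.96%), BnaA05g10360D (4.96%) and BnaA03g35810D (4.97%) were the nearest outside. The CPM of BnaC03g64900D was 19.0, 19.1 and 17.2 in Control samples, 17.6, 18.0 and 16.9 at 15 min, and 17.7, 19.4 and 17.6 at 60 min. That of BnaC03g43430D was 20.5, 20.5 and 20.3 in Control samples, 18.8, 20.6 and 18.4 at 15 min, and 21.3, 19.4 and 19.0 at 60 min. Both genes covered a similar span of levels in relation to their means, and the limit separates no distinct class.

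**Figure D2:**
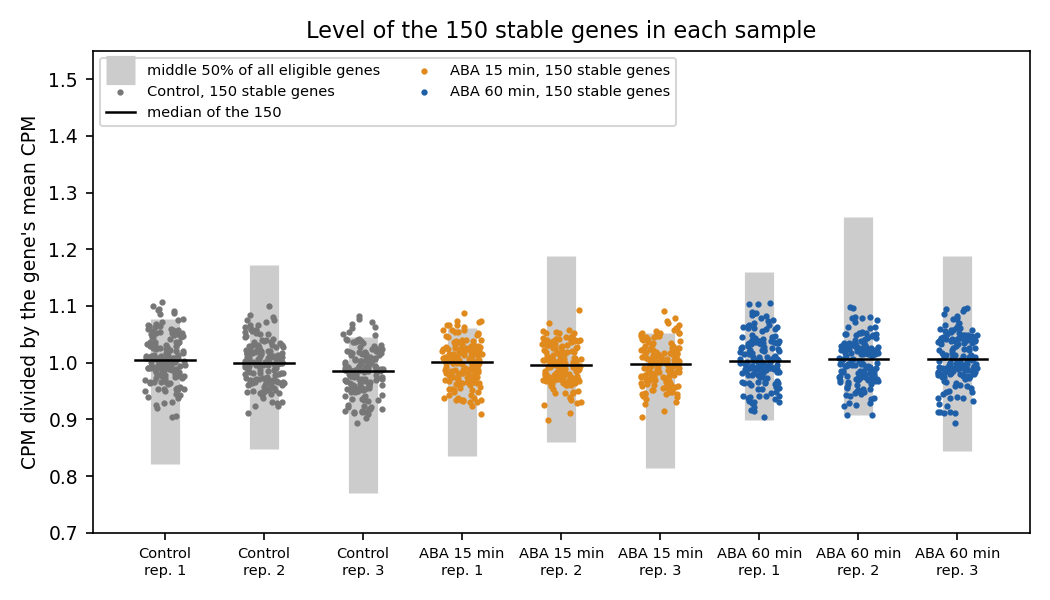
CPM of each stable gene divided by its mean over the 9 samples, for each sample. Each point is 1 of the 150 genes, black lines are medians, and grey bars hold the middle 50% of the eligible genes. The points stay between 0.893 and 1.11 in every sample, and the medians between 0.986 and 1.01.

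No sample set the high or the low end of the range for all genes. The 60 min samples were the highest of the 9 in 26, 19 and 29 genes for replicates 1, 2 and 3, and the Control samples in 23, 14 and 5 genes. The lowest value was found in a 60 min sample for 17, 13 and 18 genes, and in a Control sample for 8, 20 and 35 genes. Control replicate 3 was thus the lowest sample more often than any other, with a median relative level of 0.986. The summed CPM of the 150 genes was 4636 ± 53.5 in Control samples, 4648 ± 11.5 at 15 min and 4693 ± 12.3 at 60 min (SD, n = 3 each).

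Part of the remaining spread was counting error. The mean count of the stable genes ran from 1006 to 17851, with a median of 2606, close to the 2549 of the eligible genes. The counts of the eligible genes reached 86687, so none of the stable genes was among the most abundant of these. There were 29, 43, 48 and 30 stable genes in 4 equal parts of the eligible genes ordered by mean count, from the lowest to the highest. For each gene the CV that Poisson sampling of its reads alone would give was computed as a floor. The CV of the stable genes was 0.882 to 5.35 times this floor, with a median of 2.11, whereas the median over eligible genes was 10.2. Such a floor covers counting error only.

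The CV lay below the floor in 3 stable genes, BnaC05g00070D (0.882 times), BnaC03g68530D (0.908 times) and BnaA08g06000D (0.969 times), and in no other eligible gene. BnaC05g00070D had 11.2, 10.7 and 11.4 CPM in Control samples, 11.2, 11.4 and 11.0 at 15 min, and 10.9, 11.3 and 10.6 at 60 min. This ratio was the lowest of the eligible genes, and the ranking used the same CV. No true spread of the gene is therefore read from the ratio. At the other end, 85 of the 150 genes (56.7%) were more than 2 times above the floor, against 99.4% of the eligible genes. The highest ratio, 5.35, was that of BnaC03g43500D, a gene with a mean of 13340 counts. Its CPM was 118, 108 and 111 in Control samples, 116, 109 and 113 at 15 min, and 124, 115 and 119 at 60 min. In every group replicate 1 was the highest and replicate 2 the lowest, and within each number the 60 min sample was the highest. A CV under 5% thus stood for different precision in scarce and in abundant transcripts.

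**Figure D3:**
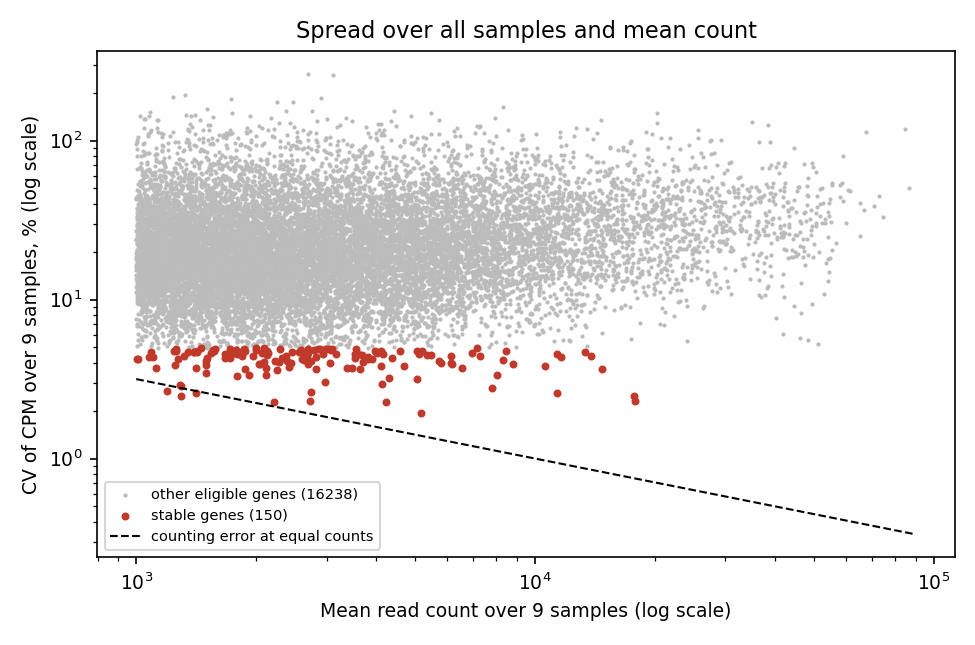
CV of CPM over the 9 samples against the mean read count, both on log scales, for the stable genes (red) and the other eligible genes (grey). The dashed line is the CV expected from counting error at equal counts. The stable genes form the lower edge of the cloud at all abundances up to 17851 counts, and those of low count lie next to the line.

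To see where the spread of each gene lay, the sum of squares of its log2 CPM was divided among the treatment groups, the replicate numbers and the rest. In the stable genes together, 26.3% lay between groups, 38.2% between replicate numbers and 35.5% in the rest. In the eligible genes these shares were 34.6%, 61.3% and 4.09%. Such pooled shares weigh genes of large spread most. Noise alone also gives each part a share, and the rest the largest, since it has the most degrees of freedom. The share between groups is therefore not read as an effect of the treatment. Gene by gene, the median share between groups was 21.0% in stable genes and 13.8% in eligible genes. The median share between replicate numbers was 34.9% and 76.9%, and that of the rest 34.8% and 4.33%. The mean square of the replicate number was the largest of the 3 in 78 stable genes (52%). That of the group was the largest in 44 (29.3%) and that of the rest in 28 (18.7%). Among eligible genes the replicate number was the largest in 77.6%, the group in 21.5% and the rest in 0.915%.

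BnaCnng01640D had the largest share between replicate numbers, 89.1%. Its CPM was 29.0, 31.9 and 31.1 in Control samples, 28.6, 31.6 and 31.9 at 15 min, and 28.4, 30.3 and 31.8 at 60 min. Replicate 1 was the lowest in each group, and the ranges of the groups overlapped. BnaCnng60820D had the largest share between groups, 79.3%. Its CPM was 25.8, 26.7 and 26.0 in Control samples, 25.6, 24.8 and 25.8 at 15 min, and 28.8, 26.9 and 28.0 at 60 min. The 3 samples at 60 min were the highest of the 9.

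Contrasts were tested for all 52881 genes by the quasi-likelihood method of edgeR, in 1 model that held the 9 samples and blocked on the replicate number, with Benjamini-Hochberg adjustment at a threshold of 0.05. The choice of the genes used these contrasts, so their counts describe the choice. At 60 min against Control, 25.7% of all tested genes passed the threshold and 0 of the 150 stable genes did. None of the 150 reached an unadjusted p under 0.05 in edgeR (0 genes), a limit that 37.2% of tested genes met. The count was also 0 with DESeq2 at both limits. DESeq2 called 23.4% of tested genes after adjustment, and 17098 of the 52881 had an unadjusted p under 0.05. At 15 min against Control, 0.431% of tested genes and 0 stable genes passed in edgeR, and DESeq2 called 0.927% of tested genes and 0 stable genes. At an unadjusted p under 0.05 there were 0 stable genes in edgeR, beside 5.54% of tested genes. In DESeq2 there were also 0, beside 2178 of the 52881 tested genes. Between 60 min and 15 min, 23.7% of tested genes and 0 stable genes passed in edgeR. In that contrast 1 stable gene, BnaCnng60820D, had an unadjusted p under 0.05 in edgeR, beside 35.7% of tested genes. In DESeq2 0 stable genes did so, beside 16307 of the 52881 tested genes. After adjustment DESeq2 called 21.7% of tested genes and 0 stable genes.

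Fold changes of the stable genes at 60 min against Control ran from -0.13 to 0.13 on the log2 scale, with a median of 0.01. The fold change was positive in 86 genes and negative in 64. The standard error had a median of 0.06, so the 95% intervals were wider than the fold changes themselves. The fit draws the spread of each gene towards that of genes of like abundance. The standard error, 0.057 to 0.077 over the 150 genes, is thus not the spread of each gene's own samples. The outermost bounds of the intervals were -0.26 and 0.27, and the interval lay wholly within 0.2 of zero in 101 of the 150 genes. For the other genes a change of that size at 60 min was not excluded by the interval. The genes were chosen for small differences in these same samples, so the intervals lie near zero through the choice. They describe the choice, and for the 101 genes too they exclude no such change in other samples. At 15 min the fold changes ran from -0.12 to 0.10, and the interval lay within 0.2 of zero in 126 genes.

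BnaA01g22230D had the largest positive fold change at 60 min, 0.13 ± 0.06 (SE, edgeR adjusted p = 0.138). Its CPM was 27.9, 27.5 and 27.4 at 60 min, against 25.8, 24.7 and 24.9 in Control samples. Every 60 min sample was above every Control sample, and the samples at 15 min, with 24.8, 25.4 and 26.9 CPM, overlapped with the Control range. BnaC03g67270D had the largest negative one, -0.13 ± 0.06 (SE, edgeR adjusted p = 0.152). Its CPM was 12.3, 12.6 and 12.3 at 60 min, against 13.5, 13.7 and 13.4 in Control samples. The groups did not overlap, and the samples at 15 min, with 12.5, 13.4 and 12.8 CPM, lay between them or within their ranges. At 15 min the largest fold change was that of BnaC08g32200D, -0.12 (edgeR adjusted p = 0.961), with 11.6, 12.0 and 10.9 CPM at 15 min against 12.7, 12.2 and 12.5 in Control samples. The ranges did not overlap here either, although the gap was small.

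Groups whose ranges did not overlap were thus found among the stable genes as well. At 60 min against Control this held for 18 of the 150 genes, 16 of them higher and 2 lower at 60 min, where 14.3% of all tested genes had ranges that did not overlap. At 15 min against Control there were 10 such genes, 7 higher and 3 lower at 15 min, beside 2.45% of tested genes. Between 60 min and 15 min there were 25, 16 higher and 9 lower at 60 min, beside 13.2% of tested genes. Since the genes were chosen on these values, nothing is read from these counts beyond the small size of the differences involved.

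Whether genes chosen in this way stay even in samples that were not used was examined by leaving out the 3 samples of 1 replicate number, choosing 150 genes by the same rule on the other 6, and measuring the CV over the 3 samples left out. The choice used TMM factors computed on its 6 samples alone. The CVs and log2 ratios were measured with the TMM factors of all 9 samples. Without replicate 1, the 150 genes had a median CV of 3.93% in the 3 samples of that number, against 8.83% for all genes eligible in that choice. Without replicate 2 the medians were 3.69% and 7.83%, and without replicate 3 they were 4.76% and 9.65%. The CV of the chosen genes was below the median of the eligible genes for 94.7%, 90.0% and 93.3% of them.

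The response at 60 min in the samples left out was smaller as well. The log2 ratio of the 60 min sample to the Control sample exceeded 0.2 in size in 15 of the 150 genes for replicate 1, in 11 for replicate 2 and in 25 for replicate 3. These are 10%, 7.33% and 16.7% of the chosen genes, against 49.6%, 44.7% and 54.7% of the eligible genes. The largest single ratios among the chosen genes were 0.36, 0.39 and 0.43 in size. The level itself was less well kept between pools. The mean of the 3 samples left out differed from that of the other 6 by a median of 0.15, 0.25 and 0.19 on the log2 scale in the chosen genes, and by 0.21, 0.34 and 0.27 in the eligible genes.

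**Figure D4:**
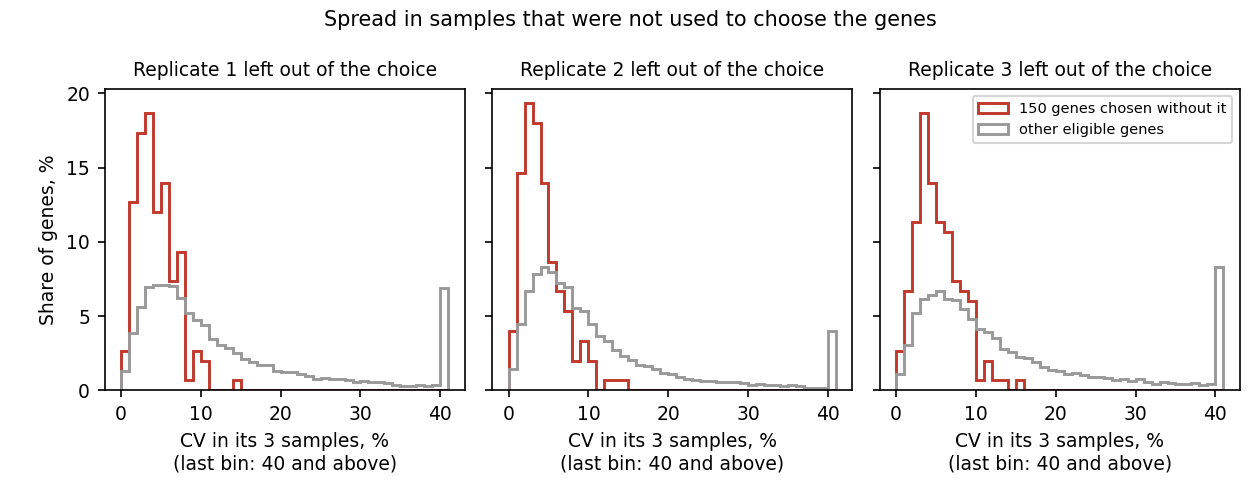
Distribution of the CV over the 3 samples of 1 replicate number (Control, 15 min, 60 min), for 150 genes chosen without these samples (red) and for the other eligible genes (grey), as a share of each set. The red medians are 3.93%, 3.69% and 4.76%, and few chosen genes exceed 10%.

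Which genes were chosen depended on the pools. The choices without replicates 1, 2 and 3 shared 63, 29 and 43 genes with the 150 stable genes. All 3 choices had 13 genes in common, and all 13 were among the stable genes. They were the 13 genes of lowest CV, from BnaC08g33250D to BnaC03g68530D (CV 2.65%), BnaA03g28940D (2.76%) and BnaA09g24960D (2.86%). BnaA03g28940D had 68.1, 65.7 and 63.8 CPM in Control samples, 65.8, 68.8 and 68.2 at 15 min, and 65.5, 69.4 and 67.1 at 60 min. Its 3 group ranges overlapped. Of the other stable genes, 10 were in 2 of the choices, 76 in 1 and 51 in none.

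Choices on part of the groups gave genes whose CV was higher in the other groups. Part of such a rise follows from the ranking, since the lowest CVs are low in the samples used through the choice. The 6 ABA samples also span 15 min and 60 min, whereas the Control samples are a single group. These choices were added after seeing the data. When 150 genes were chosen on the 3 Control samples alone, their median CV was 1.39% in those samples and 8.85% in the 6 ABA samples, against 20.4% in the ABA samples for the eligible genes. Of these 150, 47 (31.3%) passed the edgeR threshold between 60 min and 15 min, against 39.2% of the eligible genes. The fold change of that contrast sets ABA samples against each other, but the fit took its spread from all 9 samples, so this count is not independent of the Control samples used in the choice. When Control and 15 min samples were used, the median CV of the chosen genes in the 60 min samples was 6.23%, against 18.6% for the eligible genes. Those choices shared 30 and 51 genes with the 150 stable genes. A choice on the 15 min and 60 min samples shared 91, and its median CV was 5.96% in the Control samples, against 20.1% for the eligible genes.

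The evenness of the stable genes was relative to the TMM factors. As a share of all counted reads, without TMM, the 150 genes took up 0.517%, 0.441% and 0.550% in Control samples, 0.506%, 0.431% and 0.534% at 15 min, and 0.420%, 0.380% and 0.441% at 60 min. Within each replicate number the share was lowest at 60 min. The 200 most abundant genes of the Control samples took up 25.7%, 28.3% and 21.98% of the reads at 60 min for replicates 1, 2 and 3, against 23.6%, 26.8% and 19.7% in Control samples. The ranges overlapped, while within each replicate number the 60 min sample had the higher share, and the part of this in the TMM factors was not tested. When libraries were scaled by total count alone, the fold changes of the stable genes at 60 min against Control ran from -0.42 to -0.16 on the log2 scale, with a median of -0.28. Over all tested genes the median was -0.32 with total counts and -0.03 with TMM, and over the eligible genes -0.22 and 0.07. A change of scale moves every gene by about the same amount. The shift of the stable genes, and the number of them called lower at 60 min, therefore follow from the scaling. With total counts, 149 of the 150 passed the edgeR threshold as lower at 60 min and 0 as higher, in a fit that called 51.8% of all tested genes, 43.9% as lower. Between 60 min and 15 min 136 passed, in a fit that called 43.1% of tested genes. At 15 min against Control 0 stable genes passed with total counts, beside 0.46% of tested genes.

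BnaC08g33250D, whose fold change at 60 min was 0.04 with TMM, had -0.25 with total counts, and BnaC04g10300D had -0.02 with TMM and -0.31 with total counts. The CV of the stable genes was 8.54% to 17.4% with total counts, the best placed of them ranked 664, and 0 were among the 150 genes that the same rule chose on that scale. Those other 150 genes, with a CV of at most 6.05% by total count, had fold changes of 0.14 to 0.43 under TMM. Of them, 123 passed the edgeR threshold as higher at 60 min under TMM, where 8028 of the 52881 tested genes did so. These genes were chosen as even by total count, so their positive fold changes and these calls follow from the change of scale. Read counts alone do not show which scale follows the transcripts per cell. With RLE scaling, another method that holds most genes at the same level, 125 of the 150 stable genes were chosen again.

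**Figure D5:**
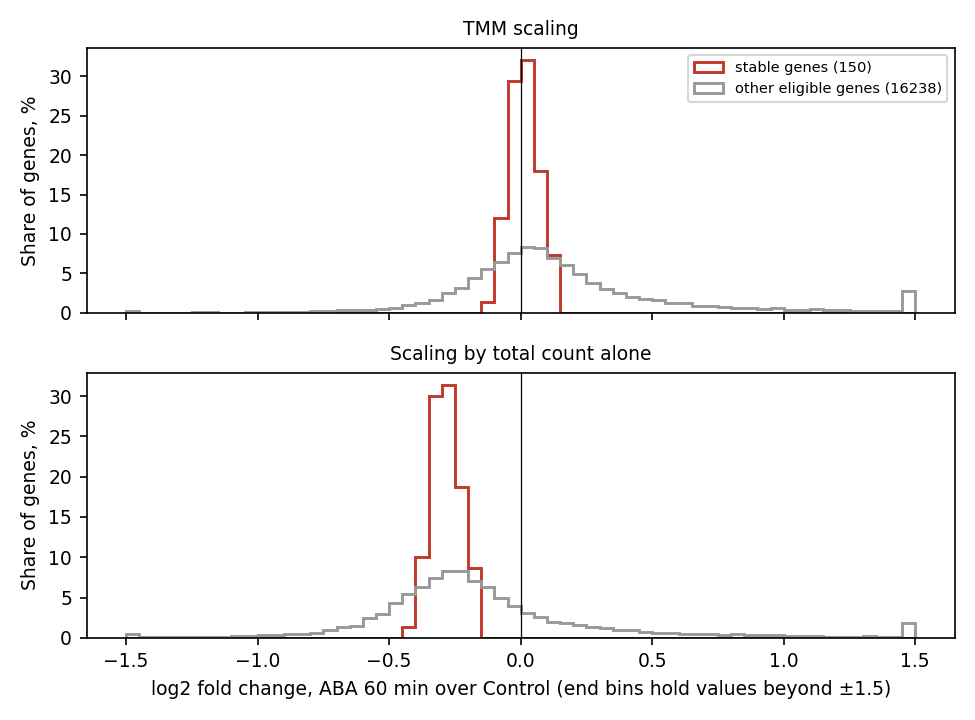
Log2 fold change at 60 min over Control of the stable genes (red) and the other eligible genes (grey), as a share of each set, with TMM scaling (top) and with scaling by total count alone (bottom). The stable genes lie between -0.13 and 0.13 on the upper panel and between -0.42 and -0.16 on the lower, where the other genes are shifted as well.

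The stable genes lay all over the genome. Of the 150, 69 (46.0%) carried identifiers of the A subgenome and 81 (54.0%) of the C subgenome, against 48.6% and 51.3% of the eligible genes. The other eligible genes, 0.128%, had no subgenome in their identifiers, and 0 of the stable genes were among them. The 134 stable genes placed on a numbered chromosome covered every chromosome, with 4 to 16 genes on each. Chromosome C03 held the most, 16 of its 1382 eligible genes. The share of eligible genes that were stable was highest on A08, 8 of 590 (1.36%), and lowest on A06, 4 of 837 (0.478%). Over the whole genome it was 150 of 16388. The counts per chromosome are small, and no difference between chromosomes is read from them. No pair of stable genes was adjacent in the numbering of the annotation (0 pairs). With 134 placed genes in an annotation of 101040, adjacent pairs are rare in any case. The 67 eligible genes next to a stable gene had a median CV of 19.4%, close to the 20.2% of all eligible genes.

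Genes that the study listed in its tables were not among the stable ones. Of 187 such genes, 173 were tested, 93 were eligible and 0 belonged to the 150. The 150 are a small part of the 16388 eligible genes, so a count of 0 among 93 is near that share. The listed genes were in part chosen in the study for their change in the same samples. Their median CV was 72.5%, and the most even of them, BnaA01g35830D, had a CV of 6.06% and ranked 387.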

How the data were processed

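RNA-seq read counts were analysed for 9 samples, 3 each of Control, ABA 15 min and ABA 60 min. Single-end reads had been mapped by the authors with TopHat2 to the Darmor genome, HTSeq had assigned each to 1 gene, and the deposited values are the raw counts. Multi-mapped reads were discarded, so near-identical gene copies are uncertain, as are overlapping genes, since the strand setting is not given in the sources used here. TMM scaling, filterByExpr and the quasi-likelihood test of edgeR 4.0.16 (R 4.3.3) were applied to all genes, and DESeq2 1.42.0 was the alternative. Sums of squares used log2 CPM with a prior count of 2. The replicate number was a block because each number is 1 pool of preparations. Deviations from group means correlated at 0.715 to 0.851 between samples sharing a number and at -0.588 to -0.156 otherwise. Deviations from a mean of 3 samples sum to zero, so the negative values follow from the positive ones and are no separate evidence. Total counts of 88051359 to 123968001 per sample gave each stable gene a mean of at least 1006 reads. Scripts were tested on simulated data. The members and lists were chosen with earlier results of these data known. Genes were named as the 10 of lowest CV, those at the limit of the choice and those at the extremes of a measure. Some of the latter were picked after their values were seen. Alternatives were other scalings, filters, tests, measures of spread and count minimums, no block, and leaving out each replicate. The names of the marker genes come from the study. Lists of genes by function could not be applied, because the annotation used here gives no product for the identifiers.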

Additional observations from a re-analysis of the deposited data

How the results depend on the processing

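The count of stable genes past the threshold was 0 in all 3 contrasts with DESeq2, RLE scaling, other count filters, without each replicate in turn and with no replicate block, and with total-count scaling it was 149 at 60 min and 136 between 60 min and 15 min. Over all tested genes, 13616 passed at 60 min against Control (8028 higher), and 27370 with total counts (4148 higher). Without the replicate block 895 passed at 60 min, 5 at 15 min and 243 between 60 min and 15 min, and leaving out 1 replicate gave 5818 to 10811, 5 to 278 and 3637 to 10843, each lowest without replicate 1. At 15 min 228 passed, against 490 with DESeq2 and 584 with no filter, and between 60 min and 15 min 12516 passed, against 22807 with total counts. The median log2 fold change of the stable genes with total counts was -0.28 at 60 min and -0.035 at 15 min. Leaving out 1 replicate moved it between -0.0049 and 0.022 at 60 min and between -0.015 and 0.012 at 15 min.

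Of the 150 genes, 90 were chosen again with upper-quartile scaling, 0 with total counts, 146 by the SD of log2 CPM, 18 when each gene was first divided by its replicate-number mean, 130 and 30 with minimums of 500 and 5000 counts, and 29 to 63 without 1 replicate. The median CV of the 150 genes chosen was 2.68% to 2.97%, and the highest 3.12% to 3.61%, without 1 replicate, against 4.37% and 4.95% with all. They were 1.85% and 2.11% after division by the replicate-number mean, 5.30% and 6.05% with total counts, and 6.27% and 7.75% with a minimum of 5000 counts. Choices added after seeing the data shared 30 (Control samples alone), 51 (Control and 15 min) and 91 (15 min and 60 min). With total counts the log2 fold change at 60 min turned negative for BnaC08g33250D (-0.25), BnaA10g02640D (-0.26), BnaC03g57060D (-0.27), BnaAnng01760D (-0.26), BnaA09g24620D (-0.26), BnaA08g06000D (-0.26) and BnaC03g25930D (-0.26), by the construction of that scale. The intervals rest on 3 samples a group and on a spread drawn towards that of other genes. Changes under about 0.2 on the log2 scale were often within the interval of a stable gene. Counting error makes up much of the CV of stable genes with few reads.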
